A study of Mus musculus with 6 samples.

Results

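This section describes 9 mouse genes, Klf2, Klf4, Nos3, Edn1, Ednrb, Plvap, Cav1, Cd34 and Gata4, that are used to read shear response and capillarization in the liver sinusoid. They were taken by their symbols from a table of 60832 genes, and all 9 were found and passed the filter on low counts, as did 15474 genes in all. The libraries are labelled as liver sinusoidal endothelial cells (LSECs), a label that their markers go against as given below. By the study's methods, the cells had been taken with anti-CD146 beads from digested liver metastatic tissue of male BALB/c-Nu mice. These nude mice without T cells bore HCT116 colorectal cancer liver metastases. The labels give a culture time of 24 h for every library. HCT116 is a human colorectal cancer cell line that was injected into the left liver lobe. Of the 6 libraries, 3 were from bevacizumab-sensitive xenografts, and 3 from bevacizumab-resistant xenografts, which had been kept on bevacizumab, an antibody against VEGF-A, for weeks. By the study's methods its vehicle group received IgG, and the treatment of the sensitive xenografts behind these 3 libraries was not given in the sources used here. Whether a library came from a single mouse or a pool was not given in the sources used here, and the p-values below therefore measure the spread between these libraries.

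LSECs line the smallest vessels of the liver and are known for open fenestrae and the lack of a continuous basement membrane. When they lose these features in chronic liver disease or in culture, the process is called capillarization, and markers of ordinary capillaries such as CD34 and PLVAP may then appear. Blood flow over endothelium is known to activate a kinase cascade through MEF2 factors to the transcription factors KLF2 and KLF4, which raise endothelial nitric oxide synthase (Nos3) and lower the vasoconstrictor endothelin-1 (Edn1). GATA4 is known as a transcription factor that keeps liver endothelium sinusoidal. The study asked whether sustained bevacizumab changes expression in LSECs. The comparison here is of resistant with sensitive libraries that carry this label. Because their markers go against the label, it describes these genes in the cells that were sequenced, and not in LSECs as such.

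Before the values, the 250 bases before the RefSeq start are shown for Klf2 and Edn1, since they stand at the ends of the shear pathway, an activated regulator and a repressed target. The sequences are from the RefSeq promoter table of GRCm38.p6, which matched 6 of the 9 genes by symbol, and both lie on the plus strand, at chr8:72318812-72319061 for Klf2 and chr13:42301226-42301475 for Edn1. Capitals mark matches on either strand to 5 motifs, the shear stress response element GAGACC, the KLF box CACCC, the GATA core GATAA, the AP-1 site TGANTCA and a MEF2 core of CTA and TAG with 4 bases between.
Klf2: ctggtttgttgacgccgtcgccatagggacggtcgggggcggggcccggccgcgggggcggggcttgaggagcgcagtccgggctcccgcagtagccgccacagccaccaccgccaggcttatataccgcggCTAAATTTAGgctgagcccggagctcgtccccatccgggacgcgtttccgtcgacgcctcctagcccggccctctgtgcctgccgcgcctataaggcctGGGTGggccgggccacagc
Edn1: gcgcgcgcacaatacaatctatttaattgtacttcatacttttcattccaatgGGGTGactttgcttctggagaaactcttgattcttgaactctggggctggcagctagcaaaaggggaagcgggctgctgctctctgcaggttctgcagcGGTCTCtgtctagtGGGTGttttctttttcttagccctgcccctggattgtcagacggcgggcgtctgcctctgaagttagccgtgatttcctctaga
In Klf2, the capitals are a MEF2 core from position -118 and a KLF box on the minus strand from position -19, counted back from the RefSeq start. That start lies inside the GENCODE gene given below, which begins at 72319033, so that the last bases of the Klf2 stretch, with its KLF box, are within that gene model. Those in Edn1 are a shear stress response element on the minus strand from position -98 and KLF boxes from positions -197 and -84. Of 32851 promoters of this length in the table, 3.2% held the MEF2 core, 13.7% the shear stress response element, 52% a KLF box, 22.6% the GATA core and 6.75% the AP-1 site. The KLF box is thus found in most promoters by its letters alone, and these matches are no evidence of binding.

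The total counts on genes ranged from 17599326 to 20726684 per library, so that 3 counts stood for 0.136 to 0.193 CPM, a floor that covers counting error only. CPM are counts relative to the TMM-adjusted total of the library. The labelled cell type was checked by its markers. The CPM of 15 macrophage and Kupffer cell markers summed to between 23049 and 42010, while 11 LSEC markers summed to between 690 and 1209 and 18 pan-endothelial markers to between 96.1 and 575. The markers of macrophages thus stood far above those of endothelium in all 6 libraries, against the label. Mcam, which encodes the CD146 antigen of the beads, had between 0.308 and 3.86 CPM. Every LSEC and pan-endothelial marker was detected, but the median FPKM of these lists was at most 3.25 and 2.88, against at least 488 for the macrophage list. Stab1, Fcgr2b and Lyve1 of the LSEC list are also known from macrophages, and Stab1 made up the largest part of its sum. Replicate 2 of the sensitive group stood apart from the others, with a median Pearson's r of 0.872 across genes against 0.957 to 0.963 for the other libraries. The first principal component, with 59.7% of the variance, set it apart. Its scaling factor was also the lowest, at 0.881, where the others lay between 0.986 and 1.07. In bulk libraries, fewer cells of a type and less RNA per cell cannot be told apart.

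The genes spanned a wide range of levels. On the authors' FPKM, which is per length and allows genes to be compared, Klf2 was the highest of the 9 with a mean of 47.1 over the 6 libraries, and Ednrb, the endothelin B receptor, followed at 34.6. Among the 15474 tested genes these means stood at the 93.1 and 90.1 percentiles. Klf4 (9.18), Cav1 (7.85) and Gata4 (4.0) were in the middle, and Edn1 (1.81), Nos3 (1.54), Cd34 (1.26) and Plvap (1.11) at the low end, with Plvap at percentile 24.3. Neighbours in this order overlapped in their ranges except Ednrb and Klf4, where Ednrb was higher in 6 of 6 libraries and its lowest value of 25.8 lay above the 13.2 that Klf4 reached at most. Klf2 exceeded Ednrb in 3 of 6 libraries, and Edn1 exceeded Nos3 in 3 of 6, so that these orders rest on the means alone. The lowest gene varied between libraries of a group. It was Edn1, Plvap and Cd34 in sensitive replicates 1 to 3, and Edn1, Nos3 and Nos3 in resistant replicates 1 to 3. By group means, the lowest genes were not the same in both groups. Plvap (1.27) and Cd34 (1.36) had the lowest mean FPKM of the sensitive group, while Nos3 (0.788) and Plvap (0.936) had the lowest of the resistant group.

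**Figure D1:**
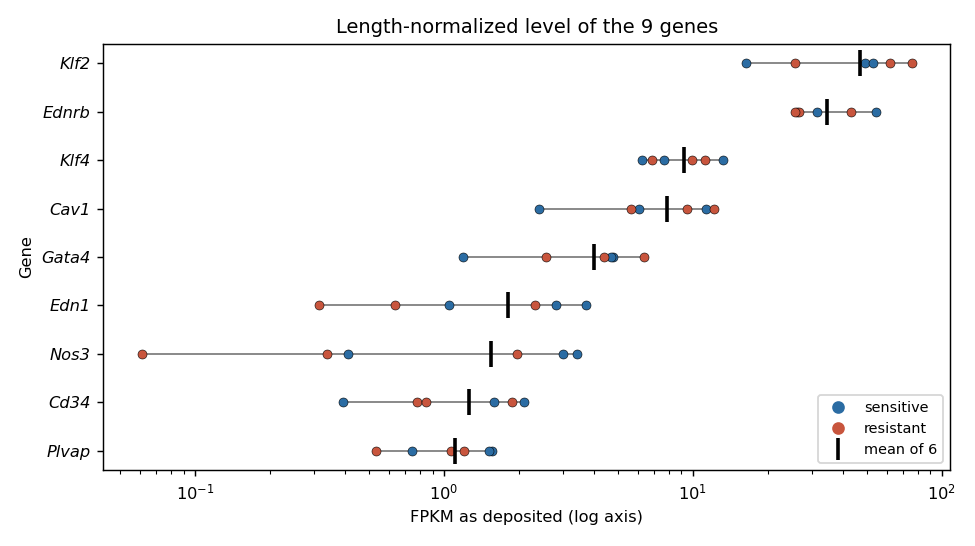
Deposited FPKM of the 9 genes (log axis), with 1 point per library, blue for sensitive and red for resistant, a grey line for the range and a black bar for the mean of 6. Klf2 and Ednrb lie above 16 in every library, while Nos3 runs from 0.0612 to 3.44.

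Between the libraries labelled as LSECs from resistant and sensitive xenografts, edgeR's quasi-likelihood test called 0 of the 9 genes at an adjusted p-value of 0.05, and 0% of all genes tested. DESeq2's Wald test and limma-voom also called 0 of the 9. Without adjustment, 0 of 9 were under 0.05, against 3.08% of all genes, and the smallest p-value from edgeR was 0.164, for Edn1. The groups overlapped in CPM for all 9 genes, where 9.02% of all genes tested did not overlap. Of the 9, 4 had a higher and 5 a lower fitted level in the resistant group, with a median log2 fold change of -0.25, against 0.01 over all genes tested. Exact permutation tests on the mean CPM (two-sided) gave p-values from 0.2 to 1.0 for the 9 genes, where 3 libraries against 3 allow 0.1 at the smallest.

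**Figure D2:**
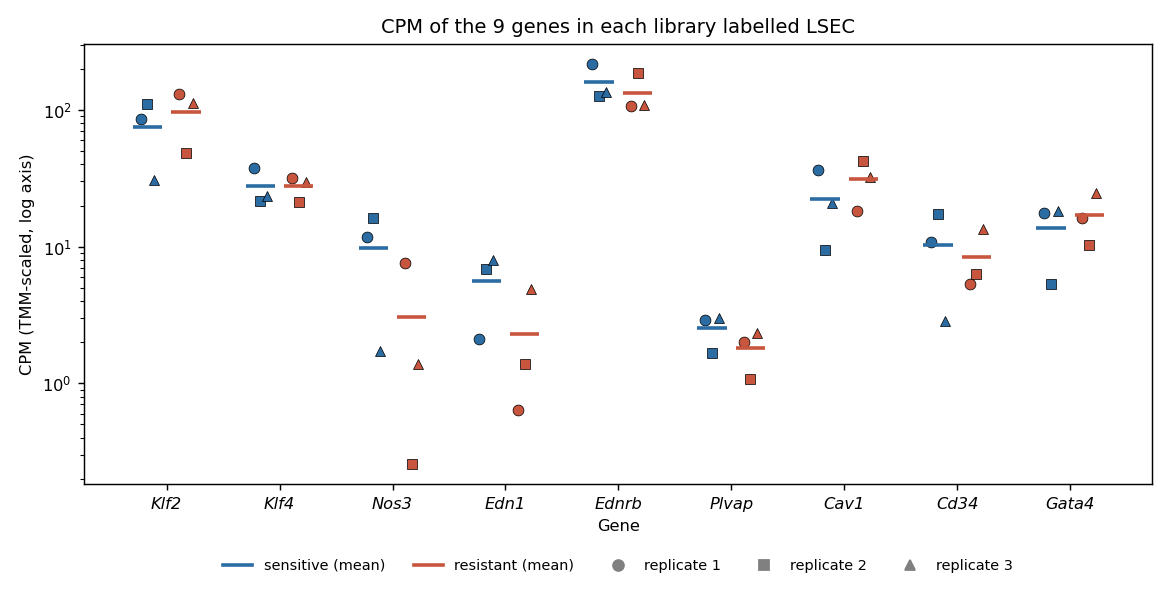
CPM of each gene (log axis) in the 3 sensitive (blue) and 3 resistant (red) libraries, with the symbol giving the replicate and the bar the group mean. The groups overlap for all 9 genes, and the points of Nos3 spread the most, from 0.256 to 16.1 CPM.

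**Figure D3:**
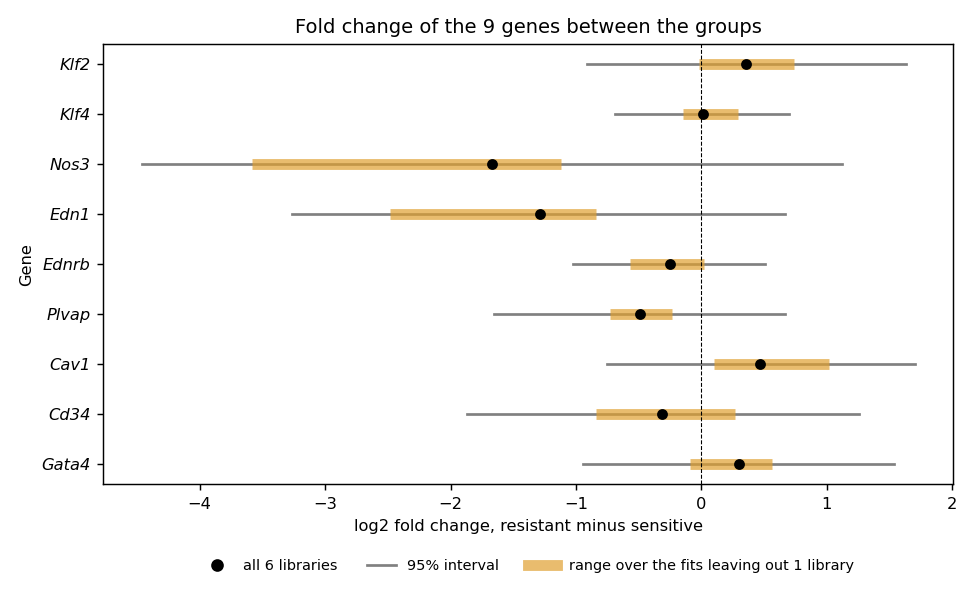
Log2 fold change of each gene, resistant minus sensitive, from edgeR with all 6 libraries (point), with its 95% interval (grey) and the range over the 6 fits that each left out 1 library (orange). All 9 intervals include 0, and those of Nos3 and Edn1 are the widest, reaching from -4.46 to 1.12 and from -3.26 to 0.67.

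The transcription factors known to be induced by flow in endothelium came first in the pathway. Flow was not measured here, the labels give 24 h of culture, and the markers go against the endothelial label. The levels are therefore not read as a flow response. Klf2 (chromosome 8 of GRCm38, 72319033 to 72321656) had 85.4, 111 and 30.5 CPM in the sensitive libraries, in the order of replicates 1 to 3, and 131, 48.2 and 113 in the resistant libraries. High and low libraries were found in both groups, with replicate 3 of the sensitive group the lowest and replicate 1 of the resistant group the highest. The means were 75.7 ± 41.2 (SD, n = 3) and 97.5 ± 43.7 (SD, n = 3), and the log2 fold change was 0.36 (95% interval -0.91 to 1.63, adjusted p = 0.940 from edgeR). Leaving out sensitive replicate 3 gave -0.02.

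Klf4 (chromosome 4, 55527143 to 55532466), which shares many targets with Klf2 in endothelium and is also known from macrophages, had 37.6, 21.7 and 23.4 CPM in the sensitive and 32.0, 21.2 and 29.9 in the resistant group. This was the narrowest spread of the 9, with a ratio of the highest to the lowest library of 1.77. The means were 27.6 ± 8.76 (SD, n = 3) and 27.7 ± 5.71 (SD, n = 3). Its log2 fold change of 0.01 had an interval from -0.69 to 0.70, so that changes between 0.620-fold and 1.63-fold were within the error.

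Nos3, the endothelial nitric oxide synthase and a target of KLF2 (chromosome 5, 24364810 to 24384474), varied most. It had 244, 250 and 35 counts in the sensitive libraries, or 11.7, 16.1 and 1.71 CPM, and 168, 5 and 27 counts in the resistant libraries, or 7.60, 0.256 and 1.38 CPM. Sensitive replicates 1 and 2 and resistant replicate 1 were high and the other 3 libraries low, and the highest was 62.9 times the lowest. The group means were 9.83 ± 7.38 (SD, n = 3) and 3.08 ± 3.95 (SD, n = 3), with a log2 fold change of -1.67 (95% interval -4.46 to 1.12, adjusted p = 0.940 from edgeR). Without replicate 1 of the resistant group the log2 fold change was -3.58 (unadjusted p = 0.0270, adjusted p = 0.969), and leaving out sensitive replicate 2 gave -1.12. The exons of Nos3 share 294 bases with those of Atg9b and 1040 with those of the antisense gene Gm15587 on the other strand, and the strand setting of the counting was not given in the sources used here. Atg9b had at most 16 counts and Gm15587 at most 1.

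Marker sums of other cells followed Nos3 over the libraries only in part. The CPM of 9 neutrophil markers summed to 4926 and 7821 in sensitive replicates 1 and 2. The sum was 1971 in resistant replicate 1, the other library with high Nos3. It was 645 in sensitive replicate 3, 331 in resistant replicate 3 and 1582 in resistant replicate 2, where Nos3 was lowest. All 9 neutrophil markers were detected. The pan-endothelial sum was lowest in replicate 2 of the resistant group, at 96.1, where Nos3 was also lowest. It lay between 371 and 575 in the others, and the 575 was in sensitive replicate 3, where Nos3 was low. The part of these cells in the Nos3 values was not tested.

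Other genes of the nitric oxide pathway were read from a list of 12, all tested, of which 0 had an adjusted p-value under 0.05. At an unadjusted p-value under 0.05, 2 were lower in the resistant group, where 2.54% of all genes tested were, and 0 higher, and the median log2 fold change of the list was -0.11. Each fit without 1 library left between 1 and 3 of the 12 lower at that threshold, and between 134 and 783 of the 15474 genes tested. The inducible synthase Nos2, known from activated macrophages and neutrophils, averaged 7.61 ± 6.06 CPM (SD, n = 3) with sensitive and 0.795 ± 0.290 (SD, n = 3) with resistant xenografts. Its log2 fold change was -3.25 (adjusted p = 0.940 from edgeR, unadjusted p = 0.0112), and its groups overlapped. Nostrin, which traffics the endothelial enzyme away from the membrane, had 6.44 ± 4.93 (SD, n = 3) and 2.28 ± 0.119 (SD, n = 3) CPM, with a log2 fold change of -1.50 (adjusted p = 0.940). Its groups did not overlap, as for 1 of the 12 genes, where 4.33% of all genes tested were lower without overlap. Sensitive replicate 2 had 12.1 CPM of Nostrin, against 3.82 and 3.37 in sensitive replicates 1 and 3. For Ddah2, which degrades an inhibitor of nitric oxide synthases, the log2 fold change was -0.79 (adjusted p = 0.940). Ddah2 was also highest in sensitive replicate 2, at 12.1 CPM. A list of 13 genes around KLF2 held sensors such as Piezo1, kinases, the CCM complex, the MEF2 factors and targets such as Thbd. Of the 13, 0 passed the test at either threshold, with 10 fitted higher and 3 lower and a median of 0.25. Regulators and targets are counted together, so that these directions are not read as pathway activity. Without sensitive replicate 2, the library that stands apart, 6 were fitted higher and 7 lower, with a median of -0.01. Over all genes tested, that fit had 7658 higher and 7816 lower. Sensitive replicate 2 had the lowest CPM of the 6 libraries for 10 of the 13 genes, and for 6331 of the 15474 genes tested. Thbd, the thrombin receptor thrombomodulin, averaged 114 ± 59.3 CPM (SD, n = 3) with sensitive and 178 ± 50 (SD, n = 3) with resistant xenografts, a log2 fold change of 0.64 (adjusted p = 0.940). The flow-gated channel Piezo1 and the sphingosine receptor S1pr1 both stood at 0.42 on the same scale, with adjusted p-values of 0.940. In sensitive replicate 2, Thbd had 49.7, Piezo1 25.9 and S1pr1 17.3 CPM, the lowest of the 6 libraries for each.

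Edn1, the precursor of the vasoconstrictor endothelin-1 that KLF2 represses (chromosome 13, 42301476 to 42307990), was on average lower in the resistant libraries, within the error. It had 44, 106 and 164 counts in the sensitive libraries, or 2.10, 6.84 and 8.01 CPM, and 14, 27 and 96 in the resistant libraries, or 0.633, 1.38 and 4.91 CPM. Replicate 3 of the resistant group lay above replicate 1 of the sensitive group, so that the groups overlapped. The means were 5.65 ± 3.13 (SD, n = 3) and 2.31 ± 2.29 (SD, n = 3), with a log2 fold change of -1.29 (95% interval -3.26 to 0.67, adjusted p = 0.940 from edgeR). Over the fits that left out 1 library it lay between -2.48, without replicate 3 of the resistant group, and -0.84, without replicate 1 of that group, below 0 in each. The exons of Edn1 share 35 bases with those of the antisense gene Gm47118, which had 0 counts in all libraries.

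Ednrb, the receptor that clears endothelin and couples it to nitric oxide in endothelium (chromosome 14, 103814625 to 103844402), had the highest mean CPM of the 9 genes. Its CPM were 217, 127 and 135 in the sensitive and 107, 187 and 108 in the resistant group. Replicate 1 of the sensitive and replicate 2 of the resistant group were high and the other 4 libraries near each other. The means were 160 ± 49.7 (SD, n = 3) and 134 ± 45.9 (SD, n = 3), and the log2 fold change was -0.25 (95% interval -1.02 to 0.51, adjusted p = 0.940 from edgeR). Leaving out sensitive replicate 1 gave 0.02.

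Of 6 other endothelin pathway genes, only Ece1, the enzyme that cuts the precursor to endothelin-1, passed the filter, with 78.2 ± 35.7 CPM (SD, n = 3) for sensitive and 82.3 ± 22.3 (SD, n = 3) for resistant xenografts and a log2 fold change of 0.07 (adjusted p = 0.978 from edgeR). The contraction-linked receptor Ednra had at most 4 counts in a library, and the ligand Edn2 and the enzyme Ece2 at most 1. Edn3 and the endothelin-degrading enzyme Mme had 0 counts in all 6 libraries, which allows up to 0.193 CPM. The ligand Edn1, its converting enzyme and the B receptor were thus the parts of this pathway that could be measured at these depths.

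The genes of fenestral diaphragms and caveolae came next. Plvap, the protein of endothelial diaphragms (chromosome 8, 71497765 to 71511752), had 61, 26 and 62 counts in the sensitive libraries, or 2.91, 1.68 and 3.03 CPM, and 44, 21 and 46 in the resistant libraries, or 1.99, 1.08 and 2.35 CPM. Replicate 2 was the lowest of each group, and the groups overlapped. The means were 2.54 ± 0.750 (SD, n = 3) and 1.81 ± 0.658 (SD, n = 3), with a log2 fold change of -0.49 (95% interval -1.65 to 0.67, adjusted p = 0.940 from edgeR), and the fits without 1 library spanned -0.73 to -0.23.

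Cav1, the coat protein of caveolae that binds and restrains the NOS3 enzyme (chromosome 6, 17306335 to 17341452), had 36.4, 9.42 and 21 CPM in the sensitive and 18.3, 42.6 and 32.1 in the resistant group. Replicate 2 of the sensitive group was the lowest and replicate 2 of the resistant group the highest. The latter was the library in which Nos3 and Plvap were lowest. The means were 22.3 ± 13.6 (SD, n = 3) and 31.0 ± 12.2 (SD, n = 3), and the log2 fold change was 0.47 (95% interval -0.75 to 1.70, adjusted p = 0.940 from edgeR). Leaving out sensitive replicate 2 gave 0.10 and leaving out sensitive replicate 1 gave 1.02. The CPM of 14 stellate cell and fibroblast markers, cells that also express Cav1, summed to 401 in resistant replicate 2, where Cav1 was highest. The next highest sum, 187, was in sensitive replicate 2, where Cav1 was lowest, and the other 4 libraries had between 98.3 and 179. Of the 14 markers, 11 were tested. Their part in the Cav1 values was not tested.

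Of 9 further genes of caveolae and membrane coats, 0 passed the test at either threshold, with 5 fitted higher and 4 lower and a median of 0.11. Cavin2, a coat protein of caveolae, had 5.75 ± 2.15 (SD, n = 3) and 13.8 ± 13.1 (SD, n = 3) CPM in the sensitive and resistant groups, a log2 fold change of 1.25 (adjusted p = 0.940 from edgeR). Flot1, a scaffold of flotillin membrane domains, had 99.9 ± 45.9 (SD, n = 3) and 58.4 ± 9.67 (SD, n = 3) CPM, a log2 fold change of -0.78 (adjusted p = 0.940). Its groups did not overlap, as for 1 of the 9 genes, where 4.33% of all genes tested were lower without overlap. Sensitive replicate 2 had 153 CPM of Flot1, against 72.7 and 74.1 in sensitive replicates 1 and 3. Cavin3, with between 15 and 75 counts, stood at -0.59 (adjusted p = 0.940). Cavin2 and Cavin3 of the same coat therefore had fitted values on either side of 0. Of the rest of the list, Cav2 (0.47), Cavin1 (0.30), Ehd2 (0.17) and Dnm2 (0.11) were fitted higher. Flot2 (-0.16) and Pacsin2 (-0.10) were fitted lower.

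Cd34, the sialomucin of capillary and progenitor cells (chromosome 1, 194938819 to 194961279), had 227, 268 and 59 counts in the sensitive libraries, or 10.8, 17.3 and 2.88 CPM, and 118, 122 and 264 in the resistant libraries, or 5.34, 6.26 and 13.5 CPM. All 3 resistant libraries lay within the range of the sensitive group. The means were 10.3 ± 7.21 (SD, n = 3) and 8.37 ± 4.48 (SD, n = 3), with a log2 fold change of -0.31 (95% interval -1.87 to 1.26, adjusted p = 0.944 from edgeR), and 0.27 when sensitive replicate 2 was left out. Mesothelial markers, 7 genes of cells that may also carry CD34, summed to 56.2, 60.6 and 18.0 CPM in the sensitive and 9.04, 43.0 and 81.9 in the resistant libraries. In these sums, the 3 libraries with the highest Cd34 were again the highest. The same 3 were highest in the sums of the 6 cholangiocyte and epithelial markers. Those sums were 35.4, 68.4 and 2.64 CPM in the sensitive and 24.1, 22.9 and 59.3 in the resistant libraries. All 7 mesothelial markers were detected and 5 were tested. The part of these cells in the Cd34 values was not tested. The exons of Cd34 share 148 bases with the antisense gene Gm16897, which had between 6 and 21 counts.

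Components of a basement membrane, which capillarized sinusoids acquire, were read from 10 genes. All were tested, 0 passed at either threshold, and 5 were fitted higher and 5 lower, with a median of -0.05. Without sensitive replicate 2, 1 was fitted higher and 9 lower, with a median of -0.28. Over all genes tested, that fit had 7658 higher and 7816 lower. The laminin chain gene Lamb1 stood at 0.89 (10.7 ± 5.22 against 19.9 ± 13.8 CPM, SD, n = 3), the linker Nid1 at 0.39 and fibronectin, Fn1, at -0.37 on the log2 scale, each with an adjusted p-value of 0.940 from edgeR. Cd34 and Plvap were thus fitted below 0, and the genes of this list on both sides of it, all within the error.

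Gata4 (chromosome 14, 63198922 to 63271692) had 366, 82 and 375 counts in the sensitive libraries, or 17.5, 5.29 and 18.3 CPM, and 355, 199 and 478 in the resistant libraries, or 16.1, 10.2 and 24.5 CPM. Replicate 2 was the lowest of each group, as for Plvap, and the other 4 libraries lay between 16.1 and 24.5. The means were 13.7 ± 7.29 (SD, n = 3) and 16.9 ± 7.17 (SD, n = 3), and the log2 fold change was 0.30 (95% interval -0.94 to 1.54, adjusted p = 0.940 from edgeR). Leaving out sensitive replicate 2 gave -0.09 and leaving out resistant replicate 3 gave -0.06.

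Of 10 GATA cofactors and sinusoidal regulators, 9 were tested and 0 passed at either threshold, with 5 fitted higher and 4 lower and a median of 0.04. The family member Gata6, known from peritoneal macrophages and other lineages, had 6.28 ± 4.86 (SD, n = 3) and 10.3 ± 6.46 (SD, n = 3) CPM in the sensitive and resistant groups, with a log2 fold change of 0.71 (adjusted p = 0.940 from edgeR). The cofactor Zfpm1 stood at 0.58 and Bmp2, a sinusoidal signal that controls iron balance, at -0.51, both with adjusted p-values of 0.940. Wnt9b, an endothelial signal of the central vein, did not pass the filter.

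Far values of the 9 genes often stood in single libraries. Relative to each gene's mean log2 CPM over the 6 libraries, replicate 2 of the resistant group was lowest for Nos3 (-3.59), Plvap (-0.93) and Klf4 (-0.35) and highest for Cav1 (0.84). Replicate 2 of the sensitive group was lowest for Cav1 (-1.34) and Gata4 (-1.38) and highest for Nos3 (2.38) and Cd34 (1.13). Replicate 3 of the sensitive group was lowest for Klf2 (-1.33) and Cd34 (-1.46) and highest for Edn1 (1.51) and Plvap (0.56).

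**Figure D4:**
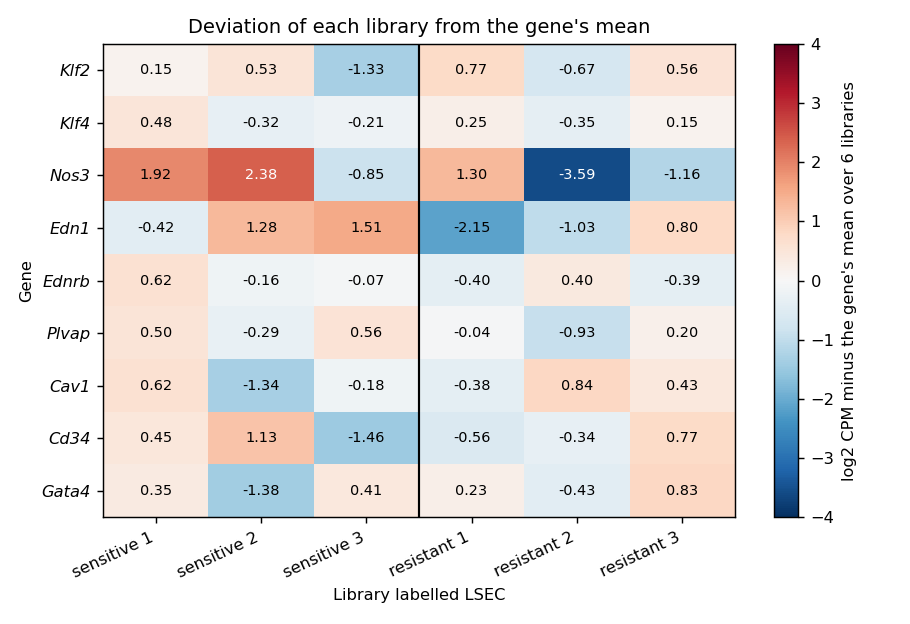
Log2 CPM of each gene in each library minus the gene's mean over the 6 libraries, in red above and in blue below the mean, with a black line between the groups. The lowest values, -3.59 for Nos3 and -2.15 for Edn1, belong to single resistant libraries, and the highest, 2.38 for Nos3, to a sensitive library.

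**Figure D5:**
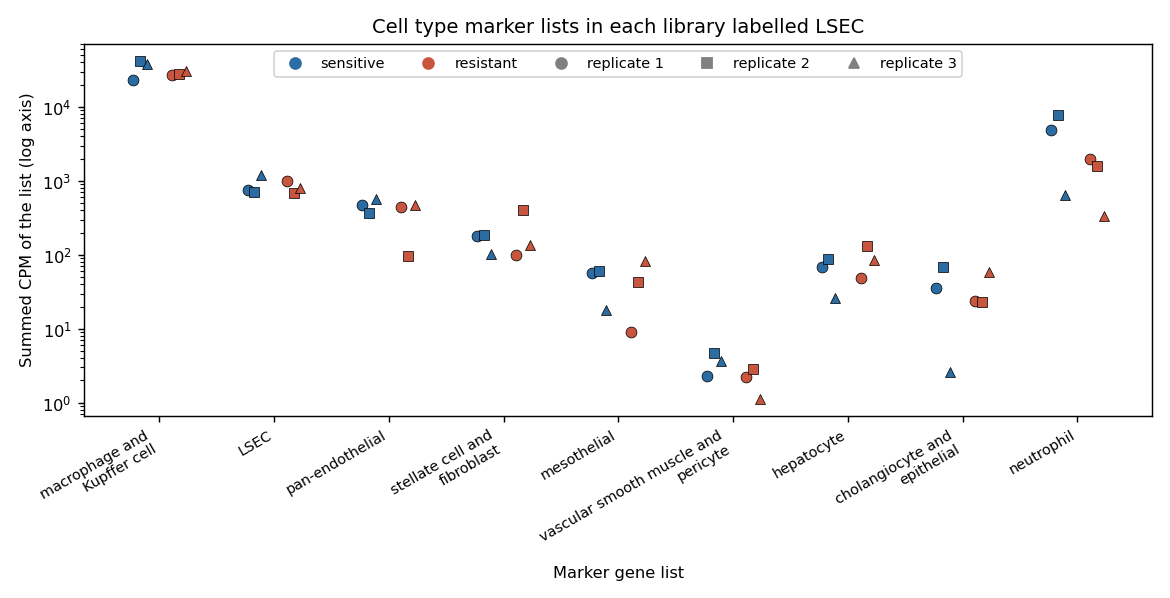
Summed CPM of 9 lists of cell type markers (log axis) in the 3 sensitive (blue) and 3 resistant (red) libraries, with the symbol giving the replicate. The macrophage and Kupffer cell sum is at least 23049 in each library, and the pan-endothelial sum falls to 96.1 in replicate 2 of the resistant group.

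Among the other lists, 5 vascular smooth muscle and pericyte markers summed to between 1.13 and 4.64 CPM, 9 hepatocyte markers to between 25.8 and 130, and 6 cholangiocyte and epithelial markers to between 2.64 and 68.4. Of the 18 pan-endothelial markers, 17 were fitted lower in the resistant group, none of these by an adjusted p-value of 0.05 from edgeR (0 of 18) and 6 at an unadjusted p-value of 0.05, and the groups did not overlap for 7, all lower. Over all genes tested, 49.2% were fitted lower, 2.54% were lower at the unadjusted threshold and 4.33% were lower without overlap. Resistant replicate 2 had the lowest CPM for 17 of the 18, and without it 13 were fitted lower, 5 of them at an unadjusted p-value of 0.05. Of the 15474 genes tested, the same fit had 7687 lower, 170 of them at that threshold. The 11 LSEC markers had 10 fitted lower and 1 without overlap. All 9 neutrophil markers were also fitted lower, with a median log2 fold change of -1.29 against -0.94 for the pan-endothelial list. All 7 tested hepatocyte markers and 9 of 11 tested stellate cell and fibroblast markers were fitted higher. Without resistant replicate 2, 5 of these 7 hepatocyte markers were fitted higher. Of the 11 stellate cell and fibroblast markers, that fit had 4 higher and 7 lower, with a median of -0.19. It had 8 of the 11 LSEC markers and all 9 neutrophil markers lower. Of the genes described here, Nos3, Edn1, Plvap, Cd34 and Ednrb had a fitted value on the same side of 0 as most endothelial markers. Cav1, Klf2 and Gata4 had one on the other side, and Klf4 stood at 0.01. All 9 intervals included 0. The part of endothelial content in their values was not tested.

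For each gene, the 2 named genes whose centred log2 CPM lay nearest over the 6 libraries were found among 12882 tested genes with names other than Gm or Rik, by the root mean square difference. The nearest to Plvap were Cd55 (0.112) and Tns1 (0.128), where the spread of Plvap itself was 0.482. For Gata4 they were Yes1 (0.137) and Tshz1 (0.154), with a spread of 0.714, and for Ednrb Sgms2 (0.121) and Tbx6 (0.140), with a spread of 0.383. Klf4 was nearest to Cep152 (0.0955) and Ugcg (0.103), with a spread of 0.308. Edn1 lay nearest to Shisa9 (0.268) and to Mcam (0.501), with a spread of 1.25. Mcam, the bead antigen named above, had 0.812, 1.55 and 3.86 CPM in the sensitive and 0.362, 0.308 and 1.33 in the resistant libraries. For Nos3 they were Rasd1 (0.553) and Prss34 (0.588), a basophil protease, with a spread of 1.94. Prss34 had 6.02, 27.2 and 0.880 CPM in the sensitive and 6.60, 0.103 and 1.13 in the resistant libraries. For Klf2 (Masp2 at 0.235 and Sema4g at 0.253, spread 0.757), Cd34 (Wnt7b at 0.233 and Rbpms2 at 0.238, spread 0.865) and Cav1 (Dixdc1 at 0.162 and Irag1 at 0.180, spread 0.731), the nearest genes had at most 2.32 CPM in any library. With 6 libraries and so many genes, near patterns are found for most profiles, and they are given as a description.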

How the data were processed

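RNA-seq libraries labelled as LSECs from HCT116 xenografts, 3 sensitive and 3 resistant to bevacizumab, were grouped and numbered by their titles. The labels give rRNA-depleted RNA and the study's methods also poly(A) selection. Per the study's methods, the authors aligned paired-end reads with Hisat2 2.0.5 and deposited featureCounts 1.5.0-p3 counts per gene without normalization. The authors also deposited FPKM, the count per gene length and library total. The submitters' processing notes name the build mm9, but the FPKM lengths of the 9 genes equal the GENCODE M21 (GRCm38) exon lengths for 9 of 9, and coordinates are from that annotation. A table of the authors' own DESeq2 comparison (group means, fold changes, p-values) was not used.

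The counts were fitted by edgeR 4.0.16 under R 4.3.3 (filterByExpr, TMM, robust quasi-likelihood test, two-sided, no covariate) over 15474 genes, with Benjamini-Hochberg adjustment and a threshold of 0.05. Standard errors were derived from the F statistic, 95% intervals used its degrees of freedom, and a prior count of 2 was added for log2 CPM. The common dispersion gave a biological coefficient of variation of 42.2%. Single genes were also compared by exact permutation tests (scipy 1.17.1). The fits were tested on simulated counts. Libraries of a group differed by more than sampling noise (chi-square per gene at least 36.7). Alternatives were DESeq2 1.42.0, limma 3.58.1 (voom, log2(FPKM + 1) and log2(FPKM + 0.1)), other scalings and filters, the replicate block and each library left out, which was added for the list counts after seeing the data.

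The 9 genes, the lists and the alternatives were chosen with earlier results of these data known. The genes named are the 9, at most 3 per pathway list with a mean log2 CPM of at least 1 and the largest absolute fold change, and the 2 nearest genes by pattern, and marker genes otherwise only as sums and counts. The library values of Mcam and Prss34, the untested genes of the lists, 3 LSEC markers shared with macrophages, and the genes that overlap a member were added after their values were seen. So were the rest of the caveolae list and the library values of Nostrin, Ddah2 and Flot1.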

Additional observations from a re-analysis of the deposited data

How the results depend on the processing

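The adjusted p-values of the 9 genes stayed above 0.05 under every alternative run, the smallest being 0.662. At an unadjusted p-value under 0.05, Edn1 passed with the replicate block (0.0241) and without replicate 3 of the resistant group (0.0196), and Nos3 without replicate 1 of that group (0.0270). Of 134 fold changes under alternatives, 122 kept their direction and 12 changed sign. Klf4, at 0.0051 on the log2 scale, was -0.00062 with DESeq2, -0.00045 with DESeq2-style size factors and -0.02 with at least 10 counts in every library, a filter that removed Nos3. The others came from leaving out 1 library, over which Klf4 ranged from -0.15 to 0.29, Cd34 from -0.84 to 0.27, Klf2 from -0.02 to 0.74, Ednrb from -0.57 to 0.02 and Gata4 from -0.09 to 0.56. The log2 fold change of Nos3 was -0.86 and that of Edn1 -0.79 with limma on log2(FPKM + 1), which shrinks changes of low genes.

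Over all genes, 0 had an adjusted and 476 an unadjusted p-value under 0.05, 17.4% of the latter higher in the resistant group. DESeq2 gave 24 and 732 and no filter 2 and 2036, and the cause was not tested. With each library left out, unadjusted counts lay between 166 (without replicate 3 of the resistant group) and 971 (without replicate 3 of the sensitive group), with 224 without replicate 2 of the resistant group, and the adjusted count was 0 in each. The share of higher genes was 31.3% with limma on log2(FPKM + 1). The titles number the libraries 1 to 3 in each group, and same-numbered libraries had deviations that correlated by -0.000918, 0.0343 and 0.194. Differently numbered libraries were not compared in this way. These values therefore cannot decide whether same-numbered libraries share more than a number. With the replicate block, 0 and 467 genes passed, and the log2 fold change of Edn1 was -1.56. The depth limits Plvap and Edn1 and the low libraries of Nos3, with as few as 5 counts.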
